A study of Mus musculus with 12 samples.

Results

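The sterol and fatty acid synthesis genes are a list of 28 genes, the regulators of the SREBP pathway and the enzymes they control, read here in sorted glia of the mouse hippocampus. They were chosen by name and matched by symbol to Ensembl identifiers, and all 28 were found in both count tables, which held 27866 genes for the ACSA-2 libraries and 30359 for the CD11b libraries, with 25442 genes in both. The list holds 5 regulators (Srebf1, Srebf2, Scap, Insig1 and Insig2), 1 sterol transport gene (Stard4) and 22 synthesis enzymes.

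Male C57Bl6/J mice received bilateral injections of an AAV2/9 vector into the CA1 at 2 months of age and were studied 2 months later, at 4 months. The vector carried either eGFP (AAV-GFP, the control) or the murine adenosine A2A receptor, Adora2a (AAV-A2A). Both were under the GfaABC1D promoter, which is selective for astrocytes. Astrocytes were taken from the dissociated hippocampus with magnetic beads against ACSA-2, an astrocyte surface antigen, and microglia with beads against CD11b from cells that the ACSA-2 beads had not retained. Each of the 4 groups (ACSA-2 or CD11b, AAV-GFP or AAV-A2A) held 3 libraries, named here by vector and the number in the sample title. In ACSA-2 libraries this number matches the library code, and in CD11b libraries it does not. The labels therefore do not show whether the fractions share mice. The whole hippocampus was sorted although the CA1 alone was injected, and the counts do not separate vector-borne Adora2a from the endogenous gene.

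SREBP transcription factors are made as membrane proteins of the endoplasmic reticulum, where SCAP escorts them to the Golgi for cleavage when sterols are scarce and INSIG proteins hold them back when sterols are plentiful. SREBP2, from Srebf2, drives mainly cholesterol synthesis and uptake, whereas SREBP1, from Srebf1, drives mainly fatty acid synthesis. In the adult brain, where little cholesterol crosses from the blood, astrocytes make cholesterol and pass it to neurons on lipoproteins.

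SREBP binds sterol regulatory elements in promoters and acts with NF-Y at CCAAT boxes and Sp1 at GC boxes. Promoters of both SREBP genes, which were the members that changed, and of 2 of their textbook targets, Hmgcs1 and Insig1, are shown 5′ to 3′ from RefSeq (GRCm38.p6). The bases are those before the transcription start, ended where an annotated exon begins. Capitals mark matches on either strand to the sterol regulatory element core TCACNCCAC, CCAAT, the E-box CACGTG and the GC box GGGCGG. Of the Srebf1 promoters not shown, chr11:60222582-60222831 held 1 CCAAT and 0 GC box matches, and chr11:60220628-60220877 held 0 and 2. Srebf2 (chr15:82147019-82147180, plus strand), Srebf1 (chr11:60210472-60210721, minus strand, the most downstream of its 3 RefSeq starts), Hmgcs1 (chr13:119690101-119690350, plus strand) and Insig1 (chr5:28071162-28071362, plus strand) read as follows.
Srebf2: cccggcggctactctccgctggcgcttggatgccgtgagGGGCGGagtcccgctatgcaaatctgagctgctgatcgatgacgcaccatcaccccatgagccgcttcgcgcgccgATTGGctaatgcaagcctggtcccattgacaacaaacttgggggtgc
Srebf1: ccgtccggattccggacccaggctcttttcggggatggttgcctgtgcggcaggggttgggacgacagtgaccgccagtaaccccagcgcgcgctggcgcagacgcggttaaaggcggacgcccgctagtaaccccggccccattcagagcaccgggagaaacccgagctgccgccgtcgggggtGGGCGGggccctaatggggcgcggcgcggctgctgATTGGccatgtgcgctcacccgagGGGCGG
Hmgcs1: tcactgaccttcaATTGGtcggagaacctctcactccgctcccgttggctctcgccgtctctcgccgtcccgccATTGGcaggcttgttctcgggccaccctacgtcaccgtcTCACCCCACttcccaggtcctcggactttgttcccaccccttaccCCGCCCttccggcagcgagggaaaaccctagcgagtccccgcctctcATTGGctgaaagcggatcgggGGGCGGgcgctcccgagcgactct
Insig1: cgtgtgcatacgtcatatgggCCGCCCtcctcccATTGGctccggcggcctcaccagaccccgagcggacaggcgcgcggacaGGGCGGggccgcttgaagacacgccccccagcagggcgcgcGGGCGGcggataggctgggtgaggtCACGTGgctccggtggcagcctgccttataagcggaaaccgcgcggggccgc

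A RefSeq promoter entry was matched for 23 of the 28 genes, and motifs were searched in the 250 bases before each start. CCAAT was present in 19 of the 23, as compared with 37.5% of the 27018 genes searched, and the GC box was present in 20 of the 23, as compared with 35.4%. The E-box was found in 5 (Scap, Insig1, Hsd17b7, Sc5d and Dhcr7), with 6.86% among all genes. The sterol regulatory element core was found in Hmgcs1 alone, with 1.23% among all genes; elements that differ from these letters were not counted. These matches describe the sequences and not their occupancy, which was not measured.

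Total counts per library ranged from 33937067 to 53206974, and pairs of libraries within a group differed by more than sampling noise (chi-square of at least 51.6 per degree of freedom). Adora2a, the gene carried by the vector, was at 23.0 to 25.1 CPM (counts scaled to library size) in the ACSA-2 AAV-GFP libraries and at 656 to 945 CPM in the AAV-A2A libraries. It was at 3.96 to 8.07 CPM in the CD11b AAV-GFP libraries and at 16.3 to 43.3 CPM in the CD11b AAV-A2A libraries. Summed astrocyte markers reached 22770 to 37350 CPM in the ACSA-2 libraries, with 271 to 493 CPM in the CD11b libraries. Summed microglia markers reached 7470 to 56100 CPM in the CD11b libraries, with 253 to 464 CPM in the ACSA-2 libraries.

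Among the CD11b libraries, 3 held abundant choroid plexus transcripts, and every CD11b result rests on them in part. The 6 choroid plexus markers summed to 76730 CPM in GFP-2328, 62220 CPM in GFP-2329 and 31920 CPM in A2A-2347. In GFP-2331, A2A-2343 and A2A-2344 they summed to 92.1, 69.0 and 9.25 CPM. The leading marker was Ttr, transthyretin, at 27420 to 72380 CPM in the former and 5.04 to 77.2 CPM in the latter. All 6 markers were higher in the former 3 libraries than in any of the others, and 6 of the 8 microglia markers were lower. Because 2 of the AAV-GFP libraries and 1 of the AAV-A2A libraries held them, the vector comparison in CD11b libraries was not balanced for these transcripts.

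The first question was at which level the pathway stood in control astrocytes. Per kilobase of annotated exon, Srebf1 and Srebf2 were the most abundant members in the ACSA-2 AAV-GFP libraries, at 228 ± 21.7 and 214 ± 30.4 CPM per kb (SD, n = 3), and these levels overlapped between libraries. Scd2, a fatty acid desaturase abundant in brain, followed at 166 ± 3.47 CPM per kb, and Msmo1, the sterol C4-methyl oxidase, at 133 ± 22.0 CPM per kb. Pmvk, phosphomevalonate kinase, reached 90.2 ± 9.70 CPM per kb.

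The other regulators were lower, with Insig1 at 48.6 ± 4.70, Insig2 at 14.9 ± 1.70 and Scap at 7.31 ± 1.14 CPM per kb. The lowest members were Acaca, acetyl-CoA carboxylase, at 0.361 ± 0.105, Stard4, a sterol carrier, at 0.899 ± 0.584, and Idi1, isopentenyl diphosphate isomerase, at 1.16 ± 0.128 CPM per kb. Levels differed along the mevalonate arm, with Mvd, the enzyme before Idi1, at 57.4 ± 14.0 CPM per kb and Fdps, the enzyme after it, at 3.20 ± 0.242 CPM per kb. The counting discarded reads that lie on more than 1 gene, and 26.7% of the annotated exon length of Fdps, 18.3% of Fdft1, 13.2% of Scap, 12.1% of Hmgcs1, 12.1% of Tm7sf2 and 9.22% of Idi1 overlaps another gene, so these levels are uncertain.

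In ACSA-2 libraries, transcripts of both SREBP genes were lower with AAV-A2A, while none of the 22 synthesis enzymes passed the test. Of the 28 members, 2 fell and 0 rose, as compared with 3.36% of the 16451 genes tested that changed (3.19% lower, 0.176% higher). A change was counted at an adjusted p-value (Padj) under 0.05 and a log2 fold change (log2 FC) beyond 0.32 in edgeR's quasi-likelihood test. In these bulk libraries, fewer cells of a type and less RNA per cell cannot be told apart.

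Srebf2 was at 1634, 1274 and 1632 CPM in the AAV-GFP libraries and at 411, 190.2 and 359.9 CPM in the AAV-A2A libraries. All 3 AAV-A2A libraries lay far below the lowest control, and the log2 FC was -2.24 ± 0.28 (SE; 95% confidence interval -2.88 to -1.60; Padj = 0.00335, edgeR). Srebf1 was at 1304, 1137 and 1355 CPM in the AAV-GFP libraries and at 628, 379 and 538 CPM in the AAV-A2A libraries. Its groups did not overlap either, and the log2 FC was -1.30 ± 0.21 (SE; 95% confidence interval -1.77 to -0.82; Padj = 0.00944, edgeR). Among all genes tested, Srebf2 ranked 86 and Srebf1 ranked 239 by p-value. A2A-310 had the lowest level of both genes, and without it the log2 FC was -1.97 for Srebf2 and -1.12 for Srebf1. Both genes passed with any of the 6 libraries left out, at a highest Padj of 0.0202 for Srebf2 and 0.0453 for Srebf1 (edgeR). When the 12 libraries of both fractions were fitted together, Srebf2 passed and Srebf1 did not (Padj = 0.138, edgeR).

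**Figure D1:**
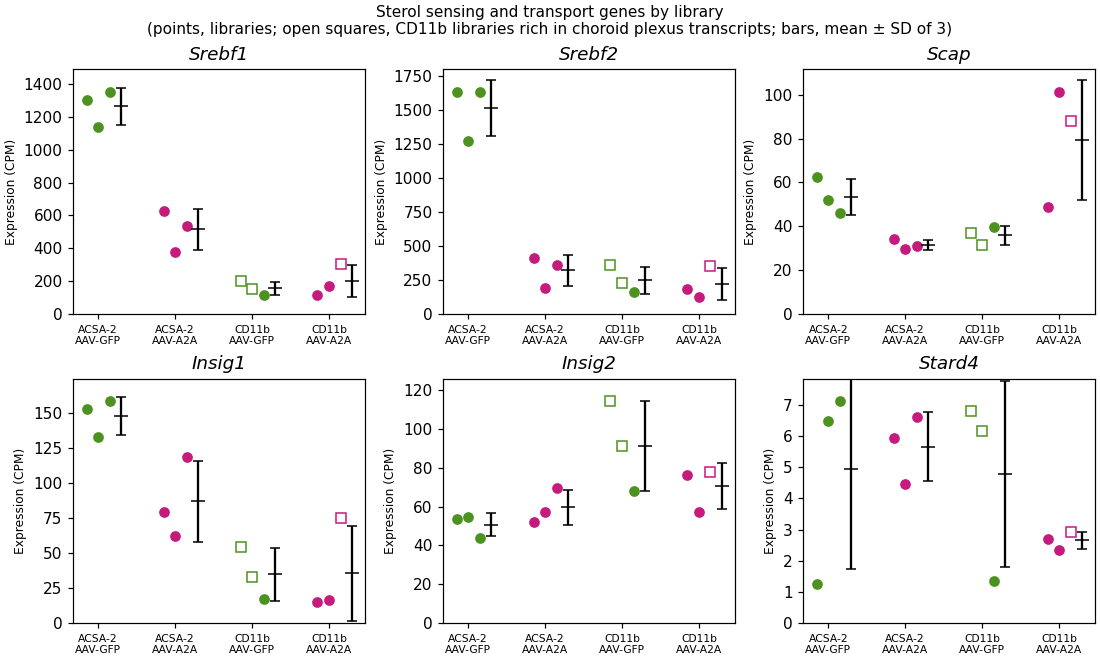
Expression in CPM (vertical axes, each from 0) of the 5 regulators and Stard4 in the 12 libraries by fraction and vector. Points are libraries, open squares the 3 CD11b libraries rich in choroid plexus transcripts, and bars the mean ± SD of 3 libraries; Srebf1 and Srebf2 fall between 190.2 and 628 CPM in the ACSA-2 AAV-A2A libraries, below every ACSA-2 control.

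The other regulators did not pass the test. Scap, the SREBP escort, was at 62.4, 51.9 and 46.3 CPM in the AAV-GFP libraries and at 34.05, 29.6 and 30.9 CPM in the AAV-A2A libraries, and the groups did not overlap (log2 FC = -0.76 ± 0.21, SE; Padj = 0.0958, edgeR). Insig1, which retains SCAP and is itself an SREBP target, was at 153, 133 and 159 CPM in the AAV-GFP libraries and at 79.2, 62.3 and 119 CPM in the AAV-A2A libraries, again without overlap (log2 FC = -0.77 ± 0.24, SE; Padj = 0.162, edgeR). Insig2, its paralogue, was at 53.5, 54.9 and 44.0 CPM in the AAV-GFP libraries and at 52.2, 57.3 and 69.7 CPM in the AAV-A2A libraries. The Insig2 groups overlapped (log2 FC = 0.23 ± 0.20, SE; Padj = 0.740, edgeR). With DESeq2, Scap and Insig1 passed together with Srebf1, Srebf2 and Fasn, which made 5 members lower and 0 higher. Among all genes, DESeq2 called 1277 of 27633, of which 1000 were lower and 277 higher. The 5 regulators summed to 2650 to 3235 CPM in the AAV-GFP libraries and to 719 to 1205 CPM in the AAV-A2A libraries. Srebf1 and Srebf2 made up most of this sum, so it does not describe the other regulators.

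The synthesis enzymes showed another picture. Their 22 log2 FC values had a median of 0.21 and ranged from -0.99 to 0.67, with 13 above 0 and 9 below. The median over the 28 members was 0.16, as compared with 0.02 over all genes tested, and 13 of the 28 were below 0, as compared with 48.4% of all genes. Groups did not overlap for 11 of the 28 members, with 7 lower and 4 higher, as compared with 19.6% of all genes tested (10.9% lower, 8.61% higher). At an unadjusted p under 0.05 there were 9 members, 6 lower and 3 higher, as compared with 13% of all genes tested (8.7% lower, 4.31% higher).

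Of the mevalonate arm, which builds isoprenoid units from acetyl-CoA, Hmgcs1 was at 162, 160.3 and 159 CPM in the AAV-GFP libraries and at 144, 128 and 207 CPM in the AAV-A2A libraries. The AAV-A2A values of this SREBP target lay on both sides of the controls, and the 95% confidence interval of its log2 FC ran from -0.46 to 0.45. Acat2 (log2 FC 0.50) and Pmvk (0.43) were higher without overlap, Mvk (-0.43) was lower without overlap, and Mvd (0.14), Idi1 (-0.40) and Fdps (0.28) overlapped. None of these 7 enzymes passed the test.

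All 3 enzymes from squalene to lanosterol had values above 0 that did not pass. Lss, lanosterol synthase, was at 13.3, 18.1 and 19.97 CPM in the AAV-GFP libraries and at 25.7, 21.4 and 33.7 CPM in the AAV-A2A libraries (log2 FC = 0.65 ± 0.28, SE; Padj = 0.356, edgeR). These groups did not overlap. Fdft1 (log2 FC 0.33) and Sqle, squalene epoxidase (0.25), overlapped between groups.

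Of the 8 enzymes from lanosterol to cholesterol, Cyp51, lanosterol 14-alpha demethylase, was at 96.7, 99.9 and 89.0 CPM in the AAV-GFP libraries and at 120.4, 113 and 159.7 CPM in the AAV-A2A libraries. Its groups did not overlap, yet it did not pass (log2 FC = 0.46 ± 0.19, SE; Padj = 0.314, edgeR). The other 7 overlapped, with log2 FC values from -0.22 (Hsd17b7) to 0.25 (Sc5d).

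The 4 fatty acid enzymes did not pass either, and 3 of them had values below 0. Fasn, fatty acid synthase, was at 232, 175 and 258 CPM in the AAV-GFP libraries and at 156, 83.4 and 94.6 CPM in the AAV-A2A libraries. The Fasn groups did not overlap (log2 FC = -0.99 ± 0.26, SE; Padj = 0.0870, edgeR). Scd2 was at 909, 881 and 889 CPM in the AAV-GFP libraries and at 769, 646 and 821 CPM in the AAV-A2A libraries, also without overlap (log2 FC = -0.26 ± 0.16, SE; Padj = 0.596, edgeR). Acly, which supplies cytosolic acetyl-CoA (log2 FC -0.63), and Acaca, which commits it to fatty acids (0.67), overlapped. Stard4 was at 1.25, 6.47 and 7.13 CPM in the AAV-GFP libraries and at 5.93, 4.45 and 6.60 CPM in the AAV-A2A libraries, with 1 control far below the rest.

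**Figure D2:**
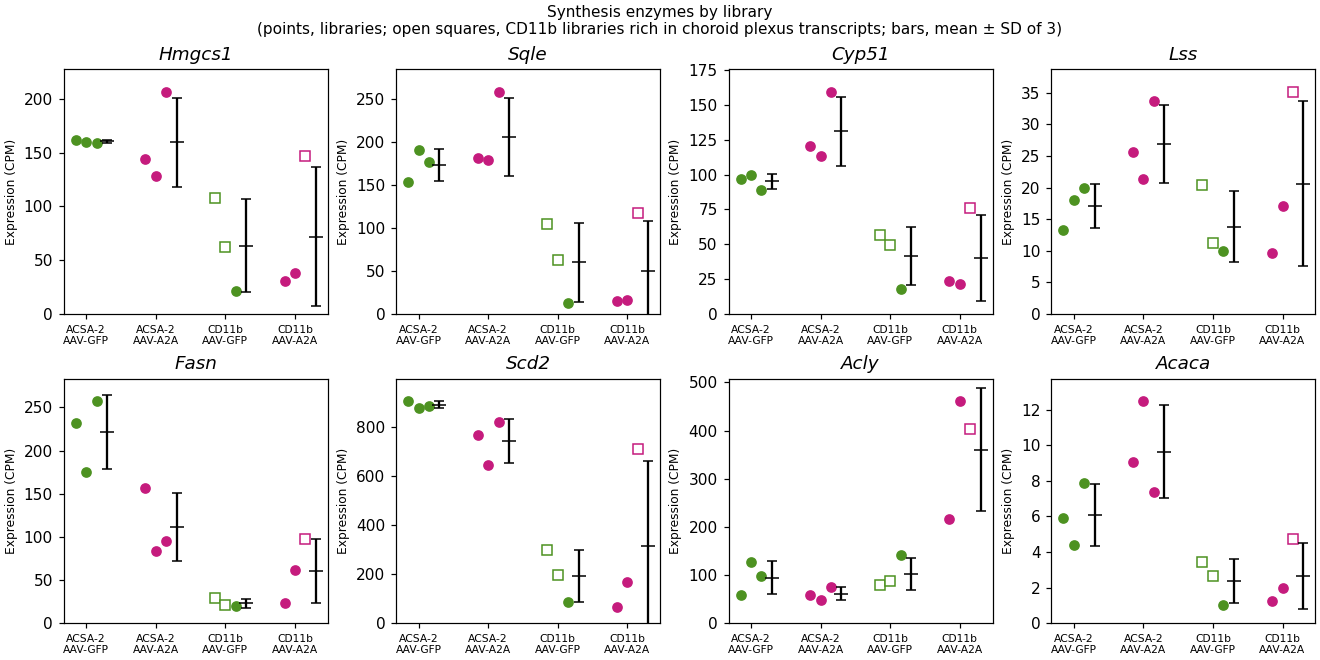
Expression in CPM (vertical axes, each from 0) of 8 synthesis enzymes in the 12 libraries by fraction and vector. Points are libraries, open squares the 3 CD11b libraries rich in choroid plexus transcripts, and bars the mean ± SD of 3 libraries; in ACSA-2 libraries Hmgcs1 overlaps between vectors while Fasn is lower and Cyp51 and Lss are higher without overlap, and none of these passed the test.

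Of a supporting list of 57 further genes of sterol and fatty acid metabolism, 54 were tested in ACSA-2 libraries. Of these, 3 fell and 0 rose, as compared with 3.19% lower and 0.176% higher among all genes tested. Npc1, the late endosomal cholesterol exporter, was at 1220, 1009 and 856 CPM in the AAV-GFP libraries and at 414, 189 and 267 CPM in the AAV-A2A libraries. These groups did not overlap (log2 FC = -1.83 ± 0.29, SE; Padj = 0.00776, edgeR). Gpam, which starts glycerolipid synthesis, was at 159.8, 146 and 166 CPM in the AAV-GFP libraries and at 91.3, 47.0 and 81.7 CPM in the AAV-A2A libraries (log2 FC = -1.10 ± 0.24, SE; Padj = 0.0415, edgeR). Agpat1, the enzyme of the next step, fell as well (log2 FC = -1.11 ± 0.25, SE; Padj = 0.0459, edgeR). Gpam lost its call with any library but A2A-309 left out (Padj = 0.0716 to 0.147, edgeR), and Agpat1 with any of the 6 left out (Padj = 0.0683 to 0.186, edgeR).

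Some other measures moved with the SREBP genes in ACSA-2 libraries. Of 59 tested markers of astrocytes and other cell types, 2 fell and 0 rose, as compared with 3.19% lower and 0.176% higher among all genes tested. Cspg4, of the oligodendrocyte precursor list, was at 186, 288 and 290.3 CPM in the AAV-GFP libraries and at 70.5, 53.1 and 45.7 CPM in the AAV-A2A libraries (log2 FC = -2.17 ± 0.24, SE; Padj = 0.00226, edgeR). That list of 3 markers summed to 190.1 to 296 CPM in the AAV-GFP libraries and to 50.4 to 75.4 CPM in the AAV-A2A libraries, nearly all of it Cspg4. Its other markers were near 0, with Pdgfra at 4.08 to 7.45 and 4.33 to 4.54 CPM and Gpr17 at no more than 0.527 CPM in any of these 6 libraries. Flt1, of the endothelial list of 5, fell too (log2 FC = -1.66 ± 0.24, SE; Padj = 0.00523, edgeR), while the summed list overlapped, at 428 to 479 and 255 to 464 CPM. Their part in the result was not tested. Mature oligodendrocytes also make sterols, and their 8 markers summed to 341 to 398 CPM in the AAV-GFP libraries and to 333 to 569 CPM in the AAV-A2A libraries.

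Base composition was the other measure. The longest annotated transcripts of Srebf1 and Srebf2 held 58.4% and 57.9% GC. Among the 2852 tested genes at or above 56% GC, a value chosen after the members were seen, 4.56% fell. Of the 13589 genes below it, 2.9% fell. Of the 7 members at or above 56% GC, 2 fell, and their median log2 FC was -0.76; the median of the other 21 was 0.22. Both SREBP genes also passed after a trend on GC and length was removed.

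In CD11b libraries no gene passed the test, so the percent called was 0% of the 16949 genes tested, and 0 of the 28 members passed (edgeR). At an unadjusted p under 0.05 there were 2704 genes (16%), among them 4 members, all higher in AAV-A2A, as compared with 9.68% of all genes on that side. limma-voom called 0 genes. DESeq2 called 502 of 30266 genes, and 1 of the 502 was a member. Groups did not overlap for 4 members, as compared with 23.4% of all genes tested (12.6% higher, 10.9% lower), with Scap, Dhcr7 and Acly higher and Mvk lower. The median log2 FC of the members was -0.17, as compared with -0.05 over all genes tested.

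Acly, ATP citrate lyase, was the member called by DESeq2. It was at 79.5, 88.4 and 141 CPM in the AAV-GFP libraries and at 217, 462 and 403 CPM in the AAV-A2A libraries. All AAV-A2A libraries lay above the highest control (log2 FC = 1.81 ± 0.43, SE; 95% confidence interval 0.78 to 2.84; Padj = 0.280, edgeR). Of these values, the 3 libraries poor in choroid plexus transcripts held 141 CPM in GFP-2331 and 217 and 462 CPM in A2A-2343 and A2A-2344. Any subset of the libraries keeps this order, so it is not a separate test.

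The other members under an unadjusted p of 0.05 were Scap, Dhcr7 and Fasn. Scap was at 36.8, 31.2 and 39.7 CPM in the AAV-GFP libraries and at 48.9, 101 and 88.2 CPM in the AAV-A2A libraries (log2 FC = 1.15 ± 0.34, SE; Padj = 0.280, edgeR). Dhcr7, the last enzyme of cholesterol synthesis, was at 14.3, 12.8 and 18.1 CPM in the AAV-GFP libraries and at 25.2, 31.2 and 34.8 CPM in the AAV-A2A libraries (log2 FC = 1.02 ± 0.30, SE; Padj = 0.280, edgeR). Neither gene overlapped between vectors. Fasn was at 29.2, 20.9 and 19.3 CPM in the AAV-GFP libraries and at 23.4, 61.3 and 97.5 CPM in the AAV-A2A libraries, which overlapped (log2 FC = 1.39 ± 0.52, SE; Padj = 0.293, edgeR). In the 54 supporting genes tested, 0 passed and 10 had an unadjusted p under 0.05. All of these were higher in AAV-A2A, as compared with 9.68% of all genes tested on that side.

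Other marker lists moved with the vector in CD11b libraries. Of 12 lists, 4 had sums that were lower in AAV-A2A libraries without overlap, although 0 of the 67 markers tested passed (edgeR). Erythrocyte markers summed to 988 to 6137 CPM in the AAV-GFP libraries and to 61.6 to 242 CPM in the AAV-A2A libraries, and endothelial markers to 532 to 1387 and 291 to 333 CPM. Ependymal markers summed to 136 to 267 and 30.0 to 58.1 CPM, and neuron markers to 16.0 to 209.6 and 4.71 to 12.5 CPM. Their part in the values of Acly, Scap and Dhcr7 was not tested.

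Srebf1 was at 198, 153 and 118 CPM in the CD11b AAV-GFP libraries and at 117, 172 and 306 CPM in the AAV-A2A libraries. Srebf2 was at 356, 227 and 158 CPM in the AAV-GFP libraries and at 179.5, 127 and 349.6 CPM in the AAV-A2A libraries. Both overlapped between vectors (log2 FC = 0.34 ± 0.44 and -0.17 ± 0.51, SE), and the confidence intervals were wide, from -0.70 to 1.39 for Srebf1 and from -1.38 to 1.03 for Srebf2. Insig1 was at 54.6, 32.9 and 16.8 CPM in the AAV-GFP libraries and at 15.4, 16.5 and 74.7 CPM in the AAV-A2A libraries. Insig2 was at 114.5, 91.0 and 68.1 CPM in the AAV-GFP libraries and at 76.5, 57.0 and 78.1 CPM in the AAV-A2A libraries. For Srebf2, Insig1 and Insig2, the 3 libraries rich in choroid plexus transcripts were all above the other 3.

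**Figure D3:**
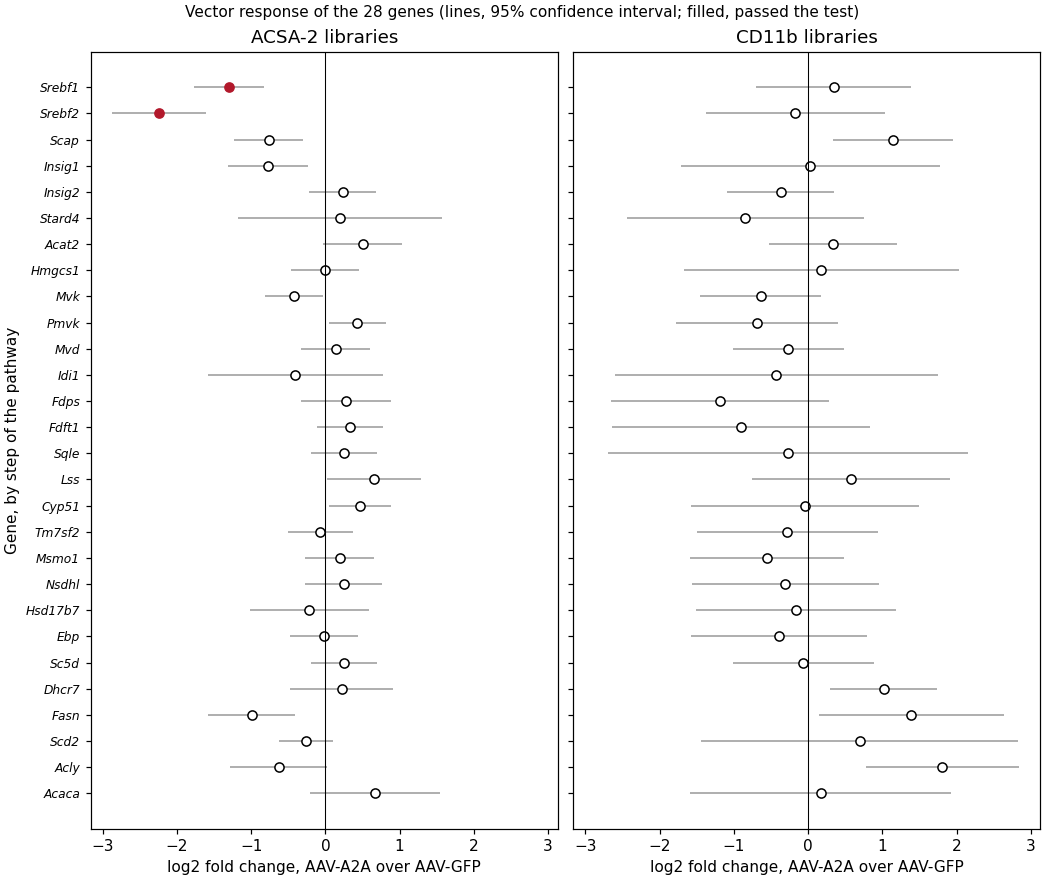
The log2 FC of AAV-A2A over AAV-GFP (horizontal axes) for the 28 genes in order of the pathway, in ACSA-2 libraries at left and CD11b libraries at right. Points are estimates, lines 95% confidence intervals and filled points the genes that passed the test; Srebf1 (-1.30) and Srebf2 (-2.24) in ACSA-2 libraries are the filled points, and the intervals are wider in CD11b libraries.

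The same order held for much of the list. The 3 libraries rich in choroid plexus transcripts were all above the other 3 for 16 of the 28 members, as compared with 20.6% of all genes tested, and all below for 0 members, as compared with 13.5%. Sqle was at 104, 63.2 and 117 CPM in GFP-2328, GFP-2329 and A2A-2347 and at 12.5, 15.04 and 16.5 CPM in GFP-2331, A2A-2343 and A2A-2344. The median of the former was 6.92 times that of the latter. This ratio was 3.52 for Hmgcs1, 3.41 for Scd2, 3.39 for Fdft1 and 3.30 for Insig1, whereas it was 0.408 for Acly, 0.545 for Ebp, 0.566 for Dhcr7 and 0.752 for Scap, whose libraries overlapped. The part of choroid plexus transcripts in the CD11b levels was not tested.

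**Figure D4:**
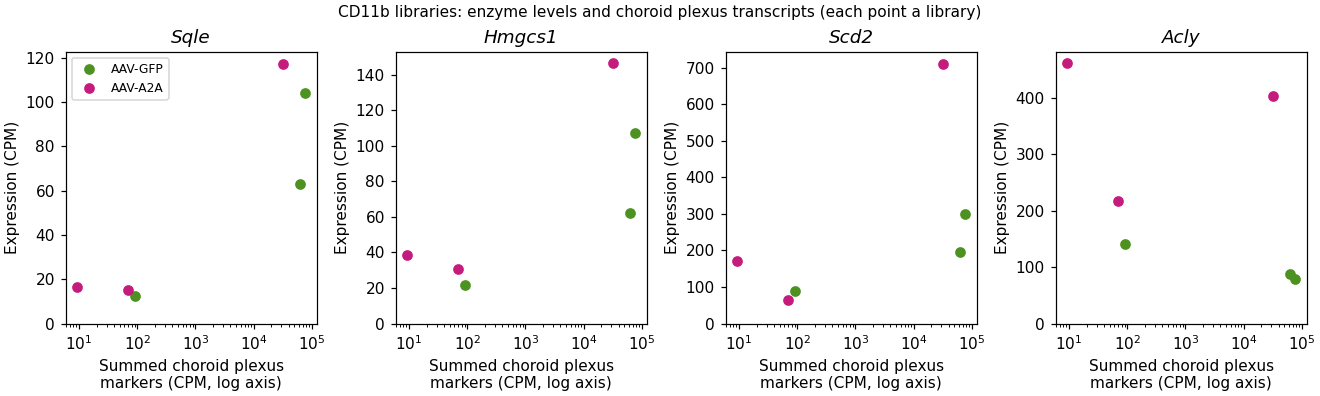
Expression in CPM (vertical axes, from 0) of Sqle, Hmgcs1, Scd2 and Acly in the 6 CD11b libraries against the summed level of 6 choroid plexus markers (horizontal log axis, CPM). Each point is a library, coloured by vector; Sqle is at 63.2 to 117 CPM in the 3 libraries with summed markers of 31920 CPM or more and at 12.5 to 16.5 CPM in the other 3, while Acly is highest in AAV-A2A libraries of both kinds.

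Whether the vector response differed between fractions was tested as the difference of the log2 FC values, ACSA-2 minus CD11b, in a joint fit of the 12 libraries. In this test 0 of the 28 members passed, as compared with 0.403% of the 18602 genes tested (75 genes, edgeR). At an unadjusted p under 0.05 there were 7 members, as compared with 19.6% of all genes. DESeq2 called 1740 of 25183 genes, 728 with a higher and 1012 with a lower value in ACSA-2 libraries. The 5 members among them (Srebf1, Srebf2, Scap, Fasn and Acly) all had a lower value in ACSA-2 libraries. With edgeR the difference was -1.96 ± 0.39 for Scap (SE; Padj = 0.0566), -2.48 ± 0.54 for Acly (Padj = 0.0625), -2.41 ± 0.60 for Fasn (Padj = 0.0784), -2.10 ± 0.59 for Srebf2 (Padj = 0.104) and -1.67 ± 0.48 for Srebf1 (Padj = 0.110). Leaving out each library in turn moved the count of members from 0 to 4 and of genes from 0 to 1286, so the test depended on single libraries. The members reached 4 without A2A-2343.

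Between the fractions of AAV-GFP mice, most members were higher in ACSA-2 than in CD11b libraries. Of the 28 members, 17 were higher and 1 was lower, as compared with 26.7% of the 18602 genes tested that differed (12.3% higher, 14.4% lower; edgeR). Groups did not overlap for 24 members, 23 of them higher and 1 lower, as compared with 48.1% of all genes tested (23.9% higher, 24.2% lower). The median log2 FC of the members was 1.88, as compared with -0.11 over all genes tested. The fractions were deposited as separate tables, so fraction and table cannot be told apart. Some markers of other cell types were also higher in the ACSA-2 AAV-GFP libraries, and others were lower. Of 3 pericyte markers 3 were called higher, with sums of 4160 to 4293 CPM as compared with 563 to 1591 CPM in CD11b libraries, and of 4 ependymal markers 3 were called higher, with sums of 961 to 1272 and 136 to 267 CPM. The 3 oligodendrocyte precursor markers summed to 190.1 to 296 and 40.3 to 65.1 CPM, with 1 called higher and 1 called lower. Of 8 oligodendrocyte markers 2 were called higher and 2 lower. Of 5 endothelial markers 2 were called lower, and of 8 neuron markers 1 was. The part of these cell types in the difference was not tested.

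The largest differences were those of Fasn (log2 FC = 3.31 ± 0.46, SE; Padj = 0.000471, edgeR), Msmo1 (3.30 ± 0.38; Padj = 0.000175), Srebf1 (3.07 ± 0.37; Padj = 0.000202), Tm7sf2, a sterol C14 reductase (3.02 ± 0.37; Padj = 0.000235), and Srebf2 (2.68 ± 0.44; Padj = 0.00128). All 7 enzymes of the mevalonate arm were higher without overlap, and 6 of them passed, Idi1 narrowly (Padj = 0.0488, edgeR). Insig2 was the member that was lower in ACSA-2 libraries (log2 FC = -0.79 ± 0.24, SE; Padj = 0.0289, edgeR), at 14.9 ± 1.70 CPM per kb as compared with 25.7 ± 5.61 CPM per kb in CD11b libraries (SD, n = 3). Insig2 lost its call with GFP-2328 (Padj = 0.105), GFP-2329 (Padj = 0.0708) or any ACSA-2 control (Padj = 0.0655 to 0.0857, edgeR) left out. Without the 3 libraries rich in choroid plexus transcripts, which left 1 CD11b AAV-GFP library, its log2 FC was -0.47. Some calls of higher members rested on single libraries too. Over the 12 fits that each lacked 1 library, the call was lost in 11 for Idi1 (highest Padj = 0.137), in 8 for Fdps (0.125), in 8 for Nsdhl (0.132), in 5 for Scd2 (0.0826), in 3 for Insig1 (0.0632) and in 2 for Fdft1 (0.0524, edgeR). The other 11 calls held in all 12 fits, and 11 members were called both without ACSA-2 GFP-307 and without CD11b GFP-2329.

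Stard4, Lss, Ebp and Acly overlapped between fractions. Ebp, the sterol isomerase, was at 27.95 ± 5.70 CPM per kb in ACSA-2 and 36.2 ± 16.0 CPM per kb in CD11b libraries, and Acly at 18.2 ± 6.65 and 19.4 ± 7.04 CPM per kb (SD, n = 3). The 95% confidence interval of the log2 FC was -1.30 to 0.55 for Ebp and -0.92 to 0.74 for Acly. Leaving out the 3 CD11b libraries rich in choroid plexus transcripts left 1 AAV-GFP library, so effect sizes alone are given. Sqle then reached a log2 FC of 3.75, Hmgcs1 2.86, Cyp51 2.35 and Acaca 2.53. With all 12 libraries they were 1.61, 1.41, 1.26 and 1.42 and did not pass. Nsdhl moved from 1.27 with all 12 libraries to 1.48, and Dhcr7 from 1.75 to 1.41. The lone CD11b AAV-GFP library was assumed to vary like the other groups.

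**Figure D5:**
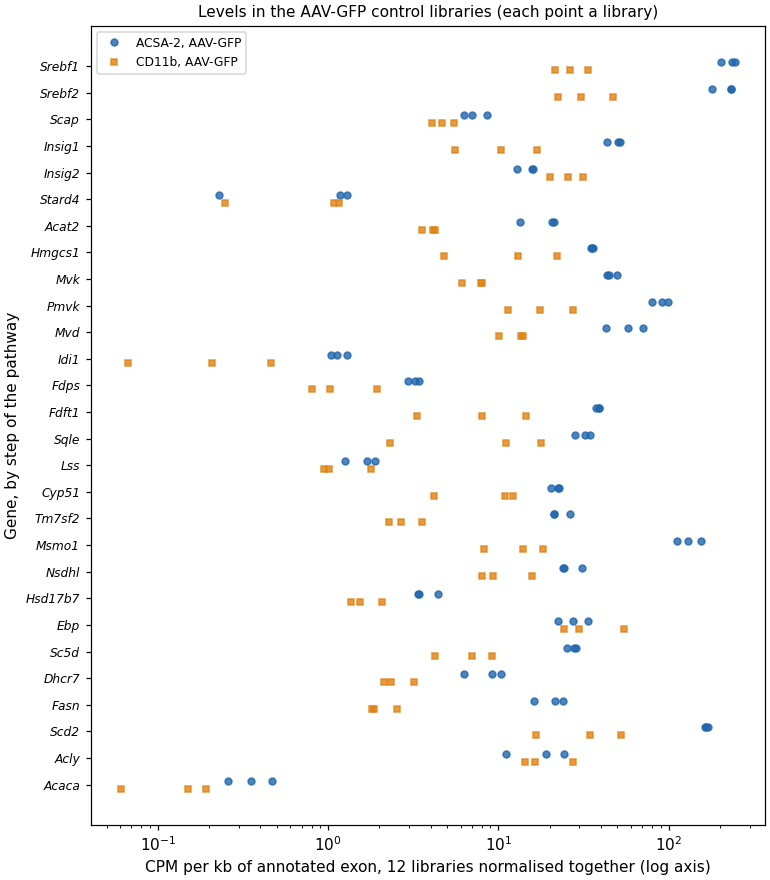
Level of the 28 genes in CPM per kb of annotated exon (horizontal log axis) in the 3 ACSA-2 (circles) and 3 CD11b (squares) AAV-GFP libraries, each point a library and genes in order of the pathway. Most genes lie further right in ACSA-2 libraries, Srebf1 and Srebf2 being furthest at 228 and 214 CPM per kb on average, while Stard4, Lss, Ebp and Acly overlap and Insig2 lies further left.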

How the data were processed

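RNA of ACSA-2 and CD11b sorted hippocampal cells was sequenced as 1x50 bp reads from SMART-Seq v4 and Nextera XT libraries, without molecular identifiers. The authors trimmed reads with cutadapt 1.10, aligned them to mm10 with STAR 2.5.3 and counted reads per Ensembl gene with htseq-count 0.6.1p1 in union mode, which drops reads that hit several places or genes, and deposited raw counts; the strand setting is not given in the sources used here, and Srebf1 isoforms were not separated. The tables also held 25 columns without a sample name (normalised counts and the authors' own comparisons), which were not used.

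Here the counts were tested with edgeR 4.0.16 in R 4.3.3 (TMM factors, filterByExpr, robust quasi-likelihood F-test, Benjamini-Hochberg adjustment over all genes tested), each fraction in its own fit and the fraction contrasts in a joint fit of 12 libraries in 4 groups. Calls needed Padj under 0.05 and an absolute log2 FC above 0.32. CPM values were scaled within a fraction, and CPM per kb values over all 12 libraries with exon lengths of GENCODE M21. Rows whose identifier GENCODE M21 did not name stayed in the fits and held at most 0.0956% of a library's counts. Alternatives used DESeq2 1.42.0, limma 3.58.1, other scaling, filters, a GC and length trend, left-out libraries and, chosen after the data were seen, the 3 CD11b libraries rich in choroid plexus transcripts left out. The edgeR, DESeq2 and limma-voom fits were tested on simulated counts, and the other steps were not. Each library was treated as an independent replicate, also across fractions in the joint fit. The tests set a difference against the spread between 3 libraries per group, estimated in part with information shared across genes. Intervals cover the model's error only.

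The 28 members, the supporting list and the marker lists were chosen with earlier results of these data known. Per-library values are given for members called in a vector comparison, for the 5 regulators and for members whose groups did not overlap or that a result turned on; the other members are given by their range, count or log2 FC.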

Additional observations from a re-analysis of the deposited data

Results flagged for a closer look

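Scap, the SREBP escort, was the member for which every AAV-A2A library moved one way in ACSA-2 cells and the opposite way in CD11b cells. It was at 46.3 to 62.4 CPM in the ACSA-2 AAV-GFP libraries and at 29.6 to 34.05 CPM in the AAV-A2A libraries, and at 31.2 to 39.7 CPM in the CD11b AAV-GFP libraries and at 48.9 to 101 CPM in the AAV-A2A libraries. The difference of the log2 FC values, ACSA-2 minus CD11b, was -1.96 and did not pass the test (Padj = 0.0566, edgeR's quasi-likelihood test). Over the 12 fits with a library left out, Padj ranged from 0.0113 to 0.189. The annotated exons of Scap overlap another gene over 13.2% of their length.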

How the results depend on the processing

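Srebf1 and Srebf2 in ACSA-2 libraries kept direction and call in all alternatives, except that Srebf1 was lost in the joint fit. The rest are values whose sign or count changed; the cause was not tested except where fewer libraries or genes made the fit. In the ACSA-2 vector comparison, the counts called or log2 FC values were with DESeq2 1277 genes and 5 members, with limma-voom Ebp 0.0031, with at least 10 counts in every library Hmgcs1 0.0014, with the length and GC trend removed Tm7sf2 0.017 and in the joint fit 156 genes and 1 member. Over the fits that each lacked 1 library, values ran over Dhcr7 -0.15 to 0.44, Ebp -0.17 to 0.14, 272 to 448 genes, Hmgcs1 -0.24 to 0.13, Hsd17b7 -0.49 to 0.080, Mvd -0.028 to 0.30, Stard4 -0.28 to 0.55 and Tm7sf2 -0.22 to 0.031. In the CD11b vector comparison, DESeq2 called 502 genes and 1 member. The log2 FC of Insig1 was -0.17 with limma-voom, -0.027 with RLE size factors and -0.071 with at least 10 counts in every library. That of Cyp51 was 0.0069 with no filter on low counts. With the length and GC trend removed, values were Srebf1 -0.32, Mvd 0.095 and Acaca -0.31. Without the 3 CD11b libraries rich in choroid plexus transcripts, they were Insig1 -0.047, Insig2 0.0035, Stard4 0.94, Idi1 1.02, Sqle 0.37, Cyp51 0.33 and Sc5d 0.49. Over the fits that each lacked 1 library, values ran over Acaca -0.53 to 0.55, Cyp51 -0.88 to 0.26, Hmgcs1 -0.87 to 0.79, Hsd17b7 -0.88 to 0.12, Idi1 -0.94 to 0.44, Insig1 -1.11 to 0.52, Lss -0.034 to 0.97, Nsdhl -0.78 to 0.079, Sc5d -0.34 to 0.24, Scd2 -0.71 to 1.16, Sqle -1.91 to 0.40, Srebf1 -0.10 to 0.60, Srebf2 -0.67 to 0.19 and Tm7sf2 -0.65 to 0.062. Between fractions of AAV-GFP mice, the counts called or log2 FC values were with limma-voom Stard4 -0.052. Over the fits that each lacked 1 library, values ran over Acly -0.36 to 0.24, Ebp -0.59 to 0.042, 11 to 21 members and Stard4 -0.36 to 0.57. For the difference of the vector response, DESeq2 called 1740 genes and 5 members, with log2 FC values of Idi1 0.050 and Hsd17b7 0.0065. RLE size factors gave 10 genes, Idi1 0.066 and Hsd17b7 0.022. At least 10 counts in every library gave 345 genes and 2 members. Without the 3 CD11b libraries rich in choroid plexus transcripts, values were Stard4 -0.77, Sqle -0.15, Hsd17b7 0.45, Sc5d -0.27 and Acaca -0.057. Over the fits that each lacked 1 library, values ran over Acat2 -0.088 to 0.38, Ebp -0.11 to 0.95, 0 to 1286 genes, Hmgcs1 -0.79 to 0.73, Hsd17b7 -0.36 to 0.55, Idi1 -0.86 to 0.41, Insig1 -1.27 to 0.21, Lss -0.31 to 0.57, 0 to 4 members, Sc5d -0.023 to 0.51, Scd2 -1.44 to 0.33, Sqle -0.13 to 2.03 and Tm7sf2 -0.16 to 0.47. No paired analysis was run, since the labels give no number shared by the groups compared. A member that missed the threshold in CD11b libraries is not shown to be unchanged, since the 95% confidence interval of Srebf2, for example, ran from -1.38 to 1.03.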

Other observations

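Mbtps1, which encodes the site-1 protease that makes the first cut in SREBP proteins, had log2 FC values of -0.85 ± 0.25 in ACSA-2 libraries (SE; Padj = 0.126, edgeR's quasi-likelihood test) and 1.20 ± 0.36 in CD11b libraries (Padj = 0.280), and its groups did not overlap in either fraction. Neither value passed the test. Gpam fell in ACSA-2 libraries and stood at 8.91, 8.33 and 12.5 CPM in the CD11b AAV-GFP libraries and at 16.8, 68.6 and 45.6 CPM in the AAV-A2A libraries, without overlap (log2 FC = 2.14 ± 0.54, SE; Padj = 0.280, edgeR). Both genes were named after their values were seen.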
